A study of Mus musculus with 8 samples.

Results

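The regions described here are peaks of N6-methyladenosine (m6A) at the stop codon, found in E14 cells, a line of mouse embryonic stem cells (ESCs). A peak was taken when the middle base of its exon blocks lay within 200 nt, counted along the transcript, of the first base of the stop codon. Each gene was represented by the GENCODE M21 transcript with the longest coding sequence, on the strand of the peak. By this rule 4097 of 18895 peaks in the DMSO list and 3107 of 13001 peaks in the Dox list lay at a stop codon. Of the peaks that could be placed on such a transcript, these were 22.9% (95% Wilson interval 22.3 to 23.6) and 25.2% (24.4 to 26.0), and these shares are descriptions, since position chose the members.

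The cells of both groups carried a Dux transgene that doxycycline (Dox) switches on and a tdTomato transgene under a MERVL promoter, as the study describes them. They received DMSO, the solvent control, or Dox for 24 h. The factor encoded by Dux switches on genes of the 2-cell embryo and gives rise to 2C-like cells, and the comparison asks how m6A at stop codons differs once that change is set off. Whole cultures were used, so the Dox RNA is a mixture of cells that did and did not change state. Antibody-bound RNA (IP) and input RNA were sequenced as 2 replicates each per treatment, but the authors' peaks came as 1 list per treatment, so no value below has a replicate error and no test between treatments was made. Intervals cover counting error only, and peaks are not independent replicates. Read depth is unknown here. More reads or more RNA of a gene give more peaks at a fixed threshold, and neither can be told apart from more methylation in these lists.

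m6A is the most common internal modification of mRNA. It is written in the nucleus by a complex built around METTL3 and METTL14, mostly in the sequence DRACH (D is any base but C, R a purine, H any base but G) with GGAC as a frequent core, and it is read by YTH-domain proteins, of which YTHDF2 recruits the CCR4-NOT deadenylase. It is known to gather in long exons and around stop codons, where the last exon of most mRNAs begins or continues.

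The GGAC sites that lay nearest to the middle of a DMSO peak are shown for 7 pluripotency factors. GGAC was held by 10 of the 13 DMSO members of the listed factors. They are given on the transcript strand with GGAC in capitals, from the GRCm38 (mm10) genome. All 7 peaks had an overlapping Dox peak, and positions are counted from the first base of the stop codon, negative before it. The genes are Esrrb, an orphan nuclear receptor (chr12:86519067-86519094, GGAC at position 16), the homeobox factor Nanog (chr6:122713384-122713411, position -157), the zinc finger factor Klf2 (chr8:72320995-72321022, position 90), Utf1 (chr7:139944963-139944990, position -13), the growth factor Fgf4 (chr7:144862865-144862892, position -62), Pou5f1, which encodes OCT4 (chr17:35510364-35510391, position -173), and Tfcp2l1 (chr1:118677414-118677441, position -6).
Esrrb: ggcccagcacatGGACggacggacacga
Nanog: taacttcggggaGGACtttctgcagcct
Klf2: ctgctatttattGGACcttaggacagag
Utf1: gggcatccttggGGACttgcgccaataa
Fgf4: gtaagaacgggcGGACcaagaaggggaa
Pou5f1: atgaggctacagGGACacctttcccagg
Tfcp2l1: atcctgaagtgtGGACtctgagcagcag

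In a further group of transcripts GGAC stood directly before the stop codon, so that the motif and the codon that ends translation were adjacent. Such an arrangement was present in 220 of 21602 coding transcripts (1.02%, 0.893 to 1.16). It was also present in 25 of 2125 genes with a peak elsewhere only (1.18%, 0.798 to 1.73). Among genes with a stop codon peak it was present in 61 of 3583 in the DMSO list (1.70%, 1.33 to 2.18) and in 54 of 2743 in the Dox list (1.97%, 1.51 to 2.56). Stop codon peaks covered it in 45 and 42 cases. The 5 with the best DMSO scores and an overlapping Dox peak are shown with GGAC and the stop codon in capitals, a set chosen after the values were seen. They are Ppm1g, a protein phosphatase (chr5:31203081-31203110), Ube2l3, a ubiquitin-conjugating enzyme (chr16:17154128-17154157), Ska2, a kinetochore protein (chr11:87121970-87121999), Med9, a Mediator subunit (chr11:59960746-59960775), and Arih1, a ubiquitin ligase (chr9:59393294-59393323). Ppm1g, Ube2l3 and Arih1 lie on the minus strand.
Ppm1g: agtgacaaaaagaaggccaagagGGACTAG
Ube2l3: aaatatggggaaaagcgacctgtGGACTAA
Ska2: gagccattaaaatctcatatgccGGACTGA
Med9: ctctgcatgtttgagatccccaaGGACTAG
Arih1: aaagatctgtgggagtacattgaGGACTGA

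Peaks rose steeply toward the stop codon from both sides. Of all transcripts with a placed DMSO peak that reached so far, 5800 at most, the share whose base was covered by a peak was highest at position -8, with 42.6%. It was 25.7% at position -200 and 23.8% at position 200, and it ended at 18.3% at position -600 and 7.85% at position 600. In the Dox list, with at most 4668 transcripts, it was highest at position 7 with 39.7%, and it was 22.7% and 20.6% at the positions -200 and 200. The profile was lower on the 3′ side than on the 5′ side at the same distance of 600 nt in both lists.

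**Figure D1:**
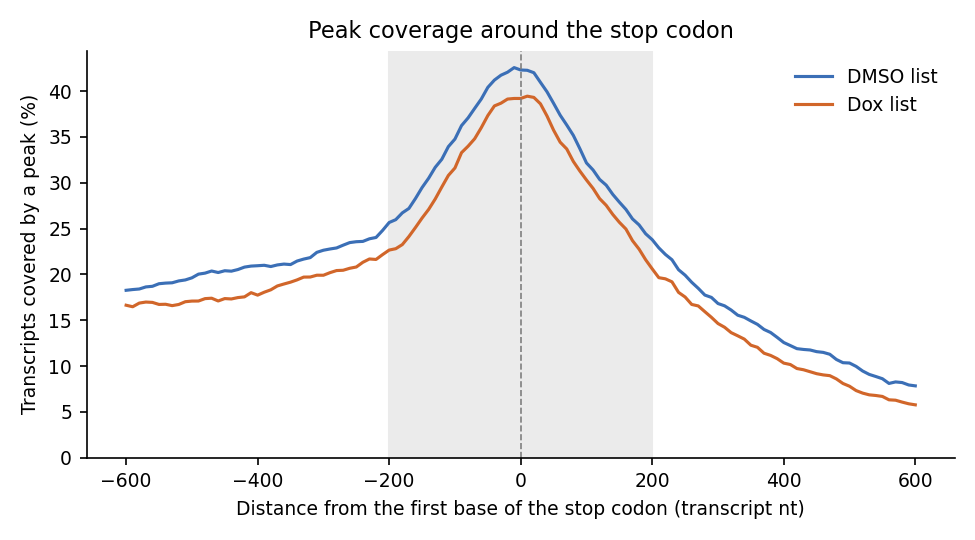
Share of transcripts (percent) whose base was covered by a peak, against the distance from the first base of the stop codon in transcript nt, for the DMSO list (blue) and the Dox list (orange), over transcripts that had a placed peak and were long enough. The shaded band is the window of 200 nt on each side, and the highest points are 42.6% and 39.7%.

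The members fell about evenly on both sides of the codon. In the DMSO list the middle base lay in coding sequence in 2114 members (51.6%), inside the stop codon in 53 (1.29%) and in the 3′ untranslated region (3′UTR) in 1929 (47.1%), and 1 member lay in a 5′UTR. In the Dox list these shares were 50.3%, 1.16% and 48.5%. The peak itself covered the first base of the stop codon in 54.5% (53.0 to 56.0) of DMSO members and 53.3% (51.6 to 55.1) of Dox members. Most middles lay in the last exon, 89.1% and 91.1%, and 21.7% of DMSO and 17.3% of Dox members ran across an exon junction. Peaks just inside the limit, 176 to 200 nt from the codon, numbered 339 and 250, and peaks just outside it, 201 to 225 nt away, numbered 304 and 226. Their median length was 150 nt inside and outside in the DMSO list, and 150 and 125 nt in the Dox list.

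Stop codon peaks had a median length of 150 nt in both lists, against 125 nt for coding peaks more than 200 nt before the stop codon (upstream coding peaks), 125 nt for 3′UTR peaks more than 200 nt after it (distal 3′UTR peaks) and 100 nt for 5′UTR peaks. The lengths varied widely, with quartiles of 75 and 275 nt for DMSO and of 75 and 250 nt for Dox, and the longest were 1675 and 1500 nt. The score is the authors' −log10 p-value of a peak, above 10 for every peak, and it was compared only within a list. The median score of members was 11.7 for DMSO and 11.6 for Dox. Their median percentile among all peaks of the list was 51.5 and 52.2, against 51.6 and 50.5 for upstream coding peaks and 41.4 and 43.3 for distal 3′UTR peaks.

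DMSO peaks at stop codons were overlapped by a Dox peak more often than upstream coding and distal 3′UTR peaks. Overlap means at least 1 shared base of exon blocks on the same strand. Of the DMSO members, 2722 (66.4%, 65.0 to 67.9) had such a Dox peak, against 57.5% of all placed DMSO peaks. The share was 55.1% for the 10724 upstream coding peaks, a difference of 11.4 percentage points (Newcombe 95% interval 9.63 to 13.1), and 52.0% for the 2423 distal 3′UTR peaks, a difference of 14.4 points (11.9 to 16.8). At the limit of the window the step was small. The share was 62.8% for peaks 176 to 200 nt from the codon and 60.9% for peaks 201 to 225 nt away. Long peaks and peaks of high score overlap more readily, so the comparison was repeated within length classes. Against upstream coding peaks the difference was 3.83 points (0.947 to 6.92) up to 50 nt, 8.82 points (5.62 to 11.99) from 51 to 150 nt, 9.22 points (6.97 to 11.4) from 151 to 300 nt and 1.12 points (0.225 to 1.84) above 300 nt. Against distal 3′UTR peaks it was 8.40, 10.5, 4.81 and 2.25 points in the same classes, and each interval lay above 0. With each length class split at the middle of the score ranking, the difference from upstream coding peaks was above 0 in all 8 classes, and its interval included 0 in 2 of them, the upper scores up to 50 nt (−0.021 to 14.6) and above 300 nt (−0.353 to 1.12). Against 5′UTR peaks of equal length the order was the opposite up to 150 nt. Over all lengths 370 of 609 DMSO 5′UTR peaks were overlapped (60.8%, 56.8 to 64.6). Up to 50 nt their share was 34.1% (28.1 to 40.6) against 20.3% (17.8 to 23.1) at the stop codon, and from 51 to 150 nt it was 63.4% (56.996 to 69.4) against 54.8% (52.0 to 57.5). From 151 to 300 nt it was 90.2% against 91.6%, and above 300 nt it was 100% against 99.6%.

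In the Dox list the size of the difference from upstream coding peaks depended on the overlap rule. With at least 1 shared base it was small. Of the Dox members, 2929 (94.3%, 93.4 to 95.0) were overlapped by a DMSO peak, against 93.0% of all placed Dox peaks. The difference was 1.27 points (0.232 to 2.25) from upstream coding peaks and 1.14 points (−0.303 to 2.71) from distal 3′UTR peaks. Dox peaks 176 to 200 nt from the codon were overlapped in 94.0% and those 201 to 225 nt away in 92.0%. Only the class of 151 to 300 nt had an interval above 0 against upstream coding peaks, with 1.10 points (0.0836 to 2.00), and no length class had one against distal 3′UTR peaks. Dox 5′UTR peaks were overlapped less often, 400 of 472 (84.7%, 81.2 to 87.7). Up to 50 nt their share was 68.4% (60.7 to 75.1) against 82.3% (79.2 to 85.0) at the stop codon. From 51 to 150 nt it was 89.1% (83.8 to 92.9) against 95.6% (94.1 to 96.7). From 151 to 300 nt it was 97.9% against 99.1%, and above 300 nt it was 100% against 98.7%. When 50% of the peak had to overlap, the difference from upstream coding peaks was 2.08 points (0.916 to 3.18), and when 50% of both peaks had to, it was 11.7 points (9.70 to 13.6). These 2 differences were taken over all lengths and were not split by length class. The unequal size of the lists moves both shares. When the DMSO list was cut to its 13001 best-scoring peaks, 80.2% of DMSO members and 82.0% of Dox members were shared, the DMSO difference from upstream coding peaks was 12.3 points (10.5 to 14.1), and the Dox difference was −0.612 points (−2.25 to 0.974).

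**Figure D2:**
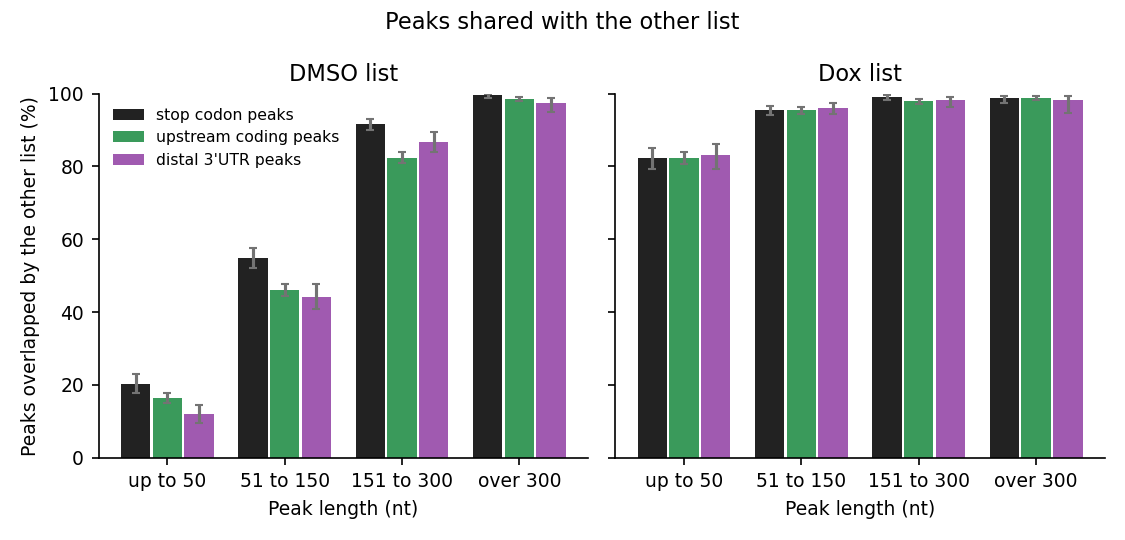
Share of peaks (percent) overlapped by a peak of the other list, by peak length in nt, for stop codon peaks (black), upstream coding peaks (green) and distal 3′UTR peaks (purple). Bars are shares and error bars are Wilson 95% intervals. Overlap is at least 1 shared base, and 5′UTR peaks are not drawn. In the DMSO list the black bar is the highest of the 3 in every length class, and in the Dox list the bars of a class differ little.

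Within the members of all lengths, overlap followed the score. In the DMSO list 92.2% (89.2 to 94.4) of the 10% with the highest scores had an overlapping Dox peak, and 13.9% (10.9 to 17.6) of the 10% with the lowest. In the Dox list the values were 97.7% and 76.5%. The median length was 200 nt in the first and 25 nt in the last of these groups in both lists. Among members of 151 to 300 nt alone, the DMSO share was 98.0% (95.7 to 99.1) for the 298 peaks with the best scores and 82.9% (78.3 to 86.8) for the 299 with the poorest. The Dox share at this length differed little. It was 99.6% (97.6 to 99.9) for the best 230 and 98.7% (96.2 to 99.6) for the poorest 230. Along the window itself the DMSO share changed less, between 62.4% at the positions 150 to 200 and 70.1% at the positions 50 to 99.

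GGAC was more frequent in stop codon peaks than in upstream coding peaks. At least 1 GGAC on the transcript strand was present in 2535 of 4096 DMSO members on assembled chromosomes (61.9%, 60.4 to 63.4) and in 1948 of 3107 Dox members (62.7%, 61.0 to 64.4). In upstream coding peaks it was present in 52.1% and 53.9%, so the differences were 9.83 points (8.06 to 11.6) and 8.75 points (6.69 to 10.8). They held in the length classes up to 300 nt. For DMSO these were 4.94, 9.45 and 5.73 points, and for Dox 5.19, 8.30 and 6.12 points. Above 300 nt nearly every peak held the motif, and the differences of 0.727 points (−1.61 to 2.80) and −0.273 points (−2.99 to 2.05) had intervals that included 0. Against distal 3′UTR peaks the overall difference was 6.68 points (4.21 to 9.16) for DMSO and 5.04 points (2.06 to 8.03) for Dox, but within length classes only the Dox class of 151 to 300 nt had an interval above 0, with 5.59 points (0.679 to 10.8). In 5′UTR peaks GGAC was present in 52.5% for DMSO and 51.8% for Dox, at a density of 0.779 and 0.774 per 100 nt. For members the density was 0.674 and 0.707. From 151 to 300 nt the 5′UTR shares were 85.6% (77.9 to 90.9) and 86.5% (78.2 to 91.9), against 77.5% and 80.3% of members. Up to 50 nt they were 24.2% and 15.9%, against 22.8% and 24.1%. In every length class of both lists their intervals overlapped those of members. Among peaks 176 to 200 nt from the codon, GGAC was present in 60.8% for DMSO and 64.4% for Dox. Among peaks 201 to 225 nt away it was present in 58.9% and 54.9%.

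**Figure D3:**
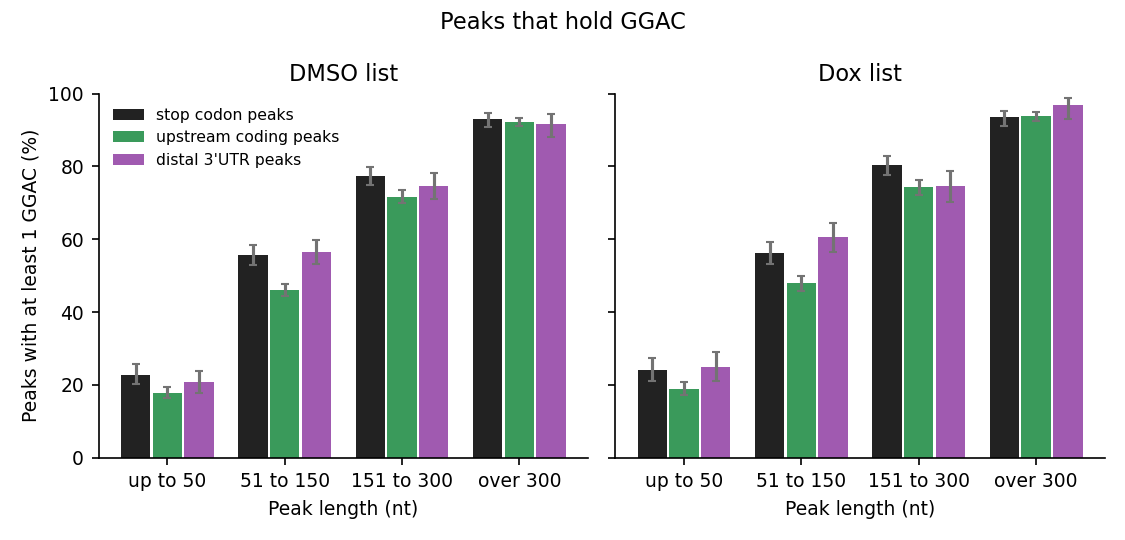
Share of peaks (percent) with at least 1 GGAC on the transcript strand, by peak length in nt, for stop codon peaks (black), upstream coding peaks (green) and distal 3′UTR peaks (purple). Error bars are Wilson 95% intervals. The share rises with length in every class of peak drawn, and stop codon peaks lie above upstream coding peaks up to 300 nt. 5′UTR peaks are not drawn.

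The motif was also more frequent than the stop codon regions themselves would give. For members of 25 to 600 nt, windows of the same length whose middle lay anywhere within 200 nt of the stop codon were searched in all coding transcripts. Weighted by the lengths of the members, 45.8% of windows held GGAC for the DMSO list and 45.0% for the Dox list, against 61.0% (59.5 to 62.5) and 62.0% (60.2 to 63.7) of the peaks. In windows on the members' own transcripts the share was 52.3% for both lists. The density in peaks was highest at the positions 0 to 49, with 0.817 GGAC per 100 nt for DMSO and 0.853 for Dox, where all coding transcripts had 0.487. The density over all coding transcripts was also highest there. At the positions 150 to 199 it was 0.331, against 0.641 in DMSO peaks and 0.654 in Dox peaks. When members of 151 to 300 nt were cut into 3 equal parts, the middle part had 0.844 GGAC per 100 nt in DMSO and 0.870 in Dox. The part toward the 5′ end had 0.687 and 0.691, and the part toward the 3′ end had 0.563 and 0.639. The middle part also had the highest density in the classes of 51 to 150 nt and above 300 nt in both lists.

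Words of 5 bases were counted in the members and in the windows on their own transcripts. Of 1010 words in the DMSO list, AACGG had the highest ratio of the densities (1.26). The words GGACT (1.25), then GGGAC (1.25) and also GGACA (1.25) came next. Of 996 words in the Dox list, GCGAA had the highest (1.36), followed by GGGAC (1.32) and GGACT (1.31). The lowest ratio in both lists belonged to TTTTT, with 0.398 and 0.340. AACGG and GCGAA were rarer, with 394 and 209 occurrences in peaks against 1594 of GGACT in DMSO and 1258 in Dox.

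A stop codon peak was found in 3584 of 21671 coding genes in the DMSO list, or 16.5%, and in 2743 in the Dox list, or 12.7%. These were 61.8% and 58.8% of the genes with any placed peak. Both lists had one in 2507 genes, which is 69.9% of the DMSO genes and 91.4% of the Dox genes. For many genes the stop codon was the only place with a peak. This was so in 1148 DMSO genes (32.0%, 30.5 to 33.6) and in 1084 Dox genes (39.5%, 37.7 to 41.4).

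Of the 1077 genes with a stop codon peak in the DMSO list only, 580 (53.9%) had no Dox peak on the transcript at all. A further 418 (38.8%) had a Dox peak elsewhere on the transcript, and in 79 (7.34%) a Dox peak did overlap but had its middle outside the window. For the 236 genes in the Dox list only the order was turned. In 135 (57.2%, 50.8 to 63.4) a DMSO peak overlapped with its middle elsewhere, in 38 a DMSO peak lay elsewhere, and in 63 (26.7%) there was no DMSO peak on the transcript. Members without an overlap were short, and their median was 50 nt for DMSO and 25 nt for Dox, where members with one had 225 and 150 nt.

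Transcripts with stop codon peaks had long 3′UTRs. The median 3′UTR was 1079 nt for DMSO and 1075 nt for Dox genes, against 741 nt over all coding genes and 979 nt for genes with a peak elsewhere only. The median coding sequence was 1380 and 1365 nt, against 1185 and 1821 nt. Longer transcripts offer more room for a peak, and their share in these values was not tested. The stop codon was TGA in 52.7% (51.1 to 54.3) and 53.0% (51.1 to 54.9) of genes with a stop codon peak, against 49.4% (48.7 to 50.1) of all coding genes and 49.9% (47.8 to 52.1) of genes with a peak elsewhere only. TAA was correspondingly less frequent, with 24.6% and 23.9% against 27.9%. At least 1 GGAC lay in the window of 401 nt in 85.9% and 87.5% of the genes, against 76.2% of all coding genes and 77.6% of genes with a peak elsewhere only.

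At sites that both lists had in common, the DMSO peak was mostly the longer one. There were 2343 pairs in which a DMSO member and a Dox peak overlapped each other and no other peak. In 1553 of them (66.3%) the DMSO peak was longer and in 271 the Dox peak. The other 519 were of equal length, and 434 of these had identical exon blocks. The median length was 200 nt in DMSO and 175 nt in Dox. Both ends contributed. Of 1980 pairs whose ends lay on the transcript, the DMSO peak reached further 5′ in 1121 and the Dox peak in 233, and toward the 3′ end the counts were 948 and 171. The middles stayed close, with a median shift of 13 nt, and 82.8% lay within 25 nt of each other. Across pairs, which are not independent replicates, the ranks of the scores had a Spearman correlation of 0.38, given as a description. Of 366 pairs whose DMSO peak was in the best 10% of its list, 129 had a Dox peak in the best 10%.

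**Figure D4:**
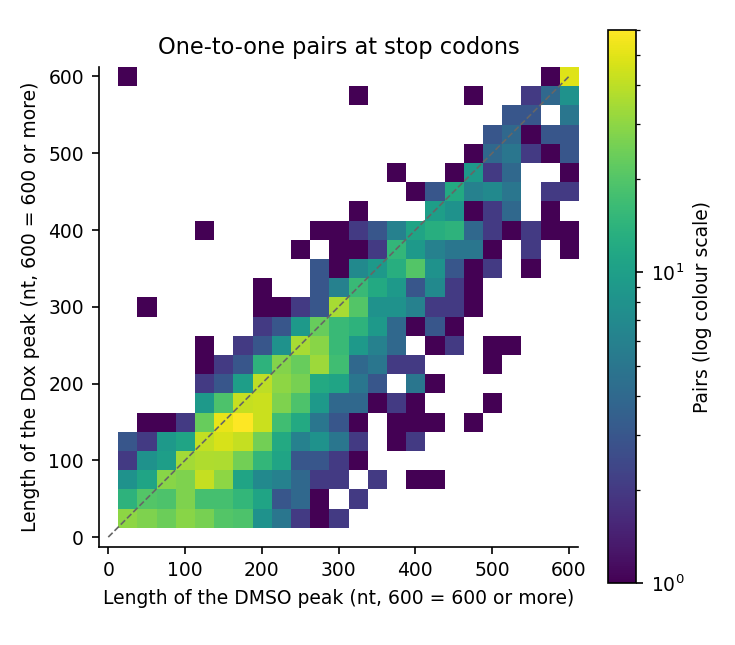
Length in nt of the DMSO peak (horizontal axis) and of the Dox peak (vertical axis) in 2343 one-to-one pairs at stop codons, with lengths above 600 nt set to 600 and the number of pairs as a log colour scale. Most pairs lie below the dashed line of equal length, where the DMSO peak is longer.

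Genes of the transcription network that keeps ESCs pluripotent carried stop codon peaks in both lists. Of 18 listed genes 13 had one with DMSO and 12 with Dox, 72.2% and 66.7%, against the 16.5% and 12.7% of all coding genes given above. They were 13 of the 18 and 12 of the 17 with any placed peak, where the shares over all such genes were 61.8% and 58.8%. The lists are not matched for expression, and many of these genes are known to be abundant in ESCs. The 11 shared genes were Esrrb, Fgf4, Klf2, Klf4, Klf5, Lin28a, Nanog, Nr5a2, Pou5f1, Tfcp2l1 and Utf1. Nanog had the same peak of 475 nt in both lists, chr6:122713142-122713616, with 5 GGAC sites and scores of 13.98 in DMSO and 13.1 in Dox. Esrrb had a spliced peak with 6 GGAC sites, 450 nt and a score of 16.4 in DMSO and 425 nt and 15.5 in Dox. Both lists thus marked nearly the same bases at these 2 genes.

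Pou5f1 differed more in rank than in place. Its peak was 175 nt in DMSO with a score of 11.6, the 47.2 percentile of the list, and 150 nt in Dox with a score of 27.3, the 98.9 percentile. A near-identical second locus exists for it, so its reads may be shared. Lin28a, an RNA-binding protein that blocks let-7 maturation, went the other way, from 125 nt and a score of 18.8 (95.8 percentile) to 75 nt and 10.8 (23.4 percentile). Klf4 had 950 nt with a score of 13.0 in DMSO and 825 nt with 16.5 in Dox, Klf2 had 650 nt with 11.6 and 675 nt with 12.8, and Klf5, whose peaks held no GGAC, had 475 nt with 12.7 and 575 nt with 12.1. The shared Kruppel-like factors thus had long peaks on both sides of the codon. Utf1, Fgf4, Nr5a2 and Tfcp2l1 had 250, 250, 400 and 300 nt in DMSO and 150, 225, 350 and 250 nt in Dox, with Tfcp2l1 carrying a second Dox member.

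The pluripotency genes found in 1 list only also had a peak in the other. Tbx3 was a DMSO member (1025 nt, score 15.3), and its Dox peak of 1725 nt also covered the stop codon but had its middle at position −268. Zfp42, which encodes REX1, was a Dox member (200 nt, score 11.8), while a DMSO peak of 1250 nt covered the codon with its middle at position −414. Sox2 was no member in either list, although peaks of 1425 and 1350 nt covered its stop codon with middles at the positions −256 and −293. No Dox peak overlapped the DMSO member of Nr0b1 (50 nt, score 12.6), and its Dox peak lay further upstream, from position −1378 to −1154.

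No 2C gene had a stop codon peak in both lists. Of 18 listed genes that are coding here, 4 were members in DMSO (22.2%) and 6 in Dox (33.3%), beside 16.5% and 12.7% of all coding genes. Among those with any placed peak, members were 4 of the 4 in DMSO and 6 of the 14 in Dox. Over all genes with a placed peak the shares were 61.8% and 58.8%. In DMSO the members were the b, c, d and f copies of Zscan4 (Zscan4b, Zscan4c, Zscan4d, Zscan4f), zinc finger genes that mark the 2C-like state, with 25, 125, 25 and 200 nt and scores of 10.9, 11.4, 10.7 and 11.8. None of these peaks held GGAC. In the Dox list the same 4 stop codons were covered by peaks of 1075, 1225, 1225 and 1175 nt with scores of 120.0, 26.2, 37.4 and 112.5, whose middles lay at the positions −478, −435, −463 and −465 and so outside the window. At these genes the DMSO list thus had short peaks of low score at or near the codon, and the Dox list had 1 long peak of high score over the end of the coding sequence and the codon. The Zscan4 copies are near-identical, with 5 to 8 other matching loci for each DMSO peak, so the reads of 1 copy can be counted at another.

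The Dox members were Duxf3, Tcstv3, Tmem92, Usp17la, Usp17lb and Usp17ld, and for these 6 genes the DMSO list had no placed peak. Usp17la, Usp17lb and Usp17ld are deubiquitinase genes, with peaks of 675, 475 and 900 nt, scores of 15.0, 12.7 and 12.1 and 3, 1 and 5 GGAC sites. Duxf3, the annotated mouse Dux gene, and Tmem92 had peaks of 25 nt, with scores of 14.5 and 11.8, and 4 and 3 other loci matched them. Dox also switches on the Dux transgene of these cells. Whether reads of the transgene were counted at Duxf3 cannot be told from the lists. Tcstv3 had 3 members, the best with 150 nt and a score of 11.6. Transcripts of 2C genes are known to be scarce in ESCs, and RNA level was not measured in the lists, so more RNA and more methylation cannot be told apart here.

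**Figure D5:**
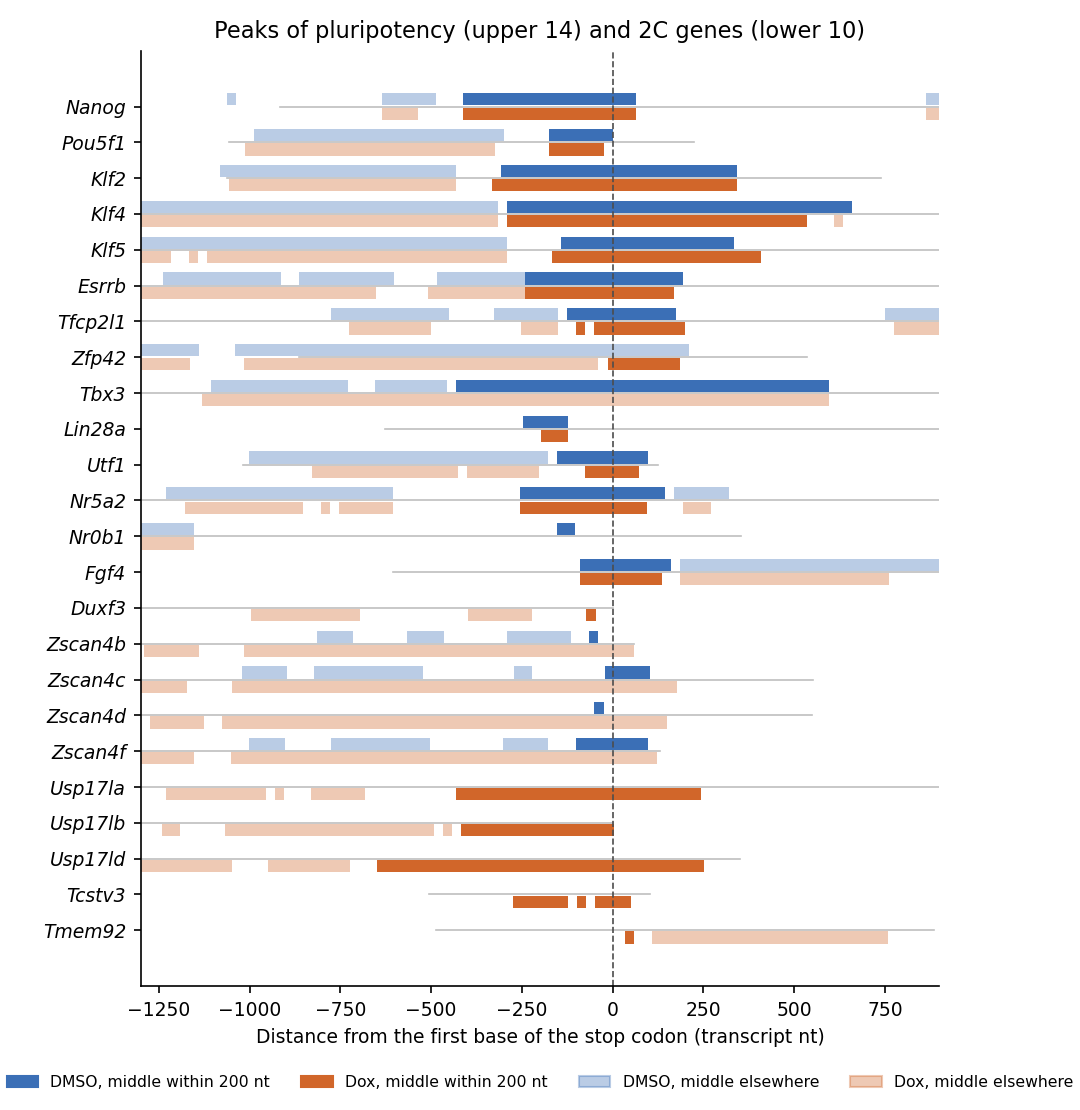
Peaks on the transcripts of 14 pluripotency genes (upper) and 10 2C genes (lower) with a stop codon peak in either list, drawn to scale as distance from the first base of the stop codon in transcript nt. DMSO peaks are blue and Dox peaks are orange, full colour marks peaks whose middle lies within 200 nt, pale colour marks other peaks, and the grey line runs from the coding start to the transcript end. The 4 Zscan4 genes have short DMSO peaks and 1 long Dox peak over the codon.

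The best-scoring Dox members with no overlapping DMSO peak lay in a further group of genes. They were B020031M17Rik (425 nt, score 24.7), Gm8994 (400 nt, 24.3), Gm20767 (575 nt, 20.6), Gm21818 (525 nt, 16.1) and C1d (100 nt, 15.3), the last a nuclear exosome cofactor. B020031M17Rik, Gm20767 and Gm21818 all lay on chromosome 13 between the 2C genes Tcstv1 and Tcstv3, at 54.7, 260.0 and 279 kb from Tcstv1, and the first had 1 near-identical locus. Each of the first 4 covered the stop codon. Their GGAC sites nearest to the peak middle are shown with GGAC in capitals, beside that of Usp17la, because no DMSO peak overlapped there. They lie at chr13:119949721-119949748 on the minus strand, chr6:136329700-136329727, chr13:120155002-120155029, chr13:120173393-120173420 and chr7:104861790-104861817.
B020031M17Rik: agttgtggacatGGACaacgacaaagat
Gm8994: ccggattctcagGGACatcgagcagtac
Gm20767: ctcagggagaaaGGACtggatcttgcaa
Gm21818: atttgagagtgtGGACtacctgagatcc
Usp17la: acaggctcctgtGGACacactgttgacc

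The best-scoring DMSO members with no overlapping Dox peak were short, at most 50 nt. They were Rpl31 (50 nt, score 35.6), Rps23 (50 nt, 25.5), Eef1a1 (50 nt, 24.4), Rps24 (25 nt, 24.2) and Cct2 (50 nt, 23.3), which encode ribosomal proteins, a translation elongation factor and a chaperonin subunit. None held GGAC. The Rpl31, Rps23 and Eef1a1 peaks had 14, 8 and 2 near-identical loci elsewhere in the genome.

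Ribosomal protein genes stood out among the members in score and in motif. Of 77 cytosolic ribosomal protein genes 54 had a stop codon peak in DMSO (70.1%) and 48 in Dox (62.3%), beside 16.5% and 12.7% of all coding genes. They were 54 of the 65 and 48 of the 61 with any placed peak, where the shares over all such genes were 61.8% and 58.8%. All 48 were also DMSO genes, beside 91.4% of all Dox genes with a stop codon peak. Their 79 DMSO peaks had a median score percentile of 94.1, and 48 were in the best 10% of the list. In Dox the median was 90.9, with 34 of 65 in the best 10%. GGAC was present in 29.1% (20.3 to 39.9) of these DMSO peaks and 27.7% (18.3 to 39.6) of the Dox peaks, against 62.5% (61.0 to 64.0) and 63.4% (61.7 to 65.1) for the members of all other genes. From 51 to 150 nt the DMSO shares were 35.1% (21.8 to 51.2) and 56.3% (53.5 to 59.0). The whole window of 401 nt held 0.323 GGAC per 100 nt in these genes, close to the 0.327 in their DMSO peaks. In the peaks of all other genes it was 0.678. Near-identical loci were found for 49 of the 79 DMSO peaks (62.0%), against 8.91% of the members of other genes, and their part in the scores was not tested.

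The best scores of all members followed. In DMSO these were Lars2, a mitochondrial leucyl-tRNA synthetase, and Rpl41, both with an infinite score, Rpl13 (269.6), Dnajc8 (181) and Tpm3 (179.9). In Dox they were Rpl41, with an infinite score, Lars2 (294), Rpl13 (201), a second Rpl41 peak (157) and Tpm3 (144). Each of these peaks had a peak with the same ends in the other list. The Lars2 peak lay 188 nt after the stop codon, and the named DMSO peaks of Rpl41, Rpl13, Dnajc8 and Tpm3 lay 108, 186, 165 and 147 nt before it. None of the 5 covered the codon.

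Of 11 writer and eraser genes of m6A, 5 were members in DMSO (45.5%) and 6 in Dox (54.5%), beside 16.5% and 12.7% of all coding genes. They were 5 of the 9 and 6 of the 10 with any placed peak, where the shares over all such genes were 61.8% and 58.8%. Zc3h13 and Rbm15b of the writer complex, the demethylase Alkbh5 and Zfp217 were found in both, with 225, 375, 525 and 225 nt in DMSO and 175, 350, 300 and 200 nt in Dox. Fto, a demethylase, was a DMSO member only (50 nt, score 10.3), and Mettl14 (25 nt, 10.1) and Rbm15 (275 nt, 13.8) were Dox members only. The core methyltransferase gene Mettl3 had no placed peak in either list.

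Among 9 reader genes 6 were members in each list (66.7%), beside 16.5% and 12.7% of all coding genes. In each list 8 had any placed peak, and over all genes with one 61.8% and 58.8% were members. Ythdf3, Ythdc1, Igf2bp1, Igf2bp2 and Igf2bp3 were shared. Ythdc1, a nuclear reader, had a peak with the same blocks of 300 nt in both lists, with scores of 18.4 in DMSO and 12.4 in Dox, and Igf2bp3 went from 250 nt and 11.9 to 200 nt and 17.3. Ythdf2 was a Dox member with 50 nt and a score of 10.8 at position −35, while in DMSO a peak of 1100 nt covered the codon with its middle at position −435. Hnrnpa2b1 was a DMSO member only, its best peak having 25 nt and a score of 17.4.

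Of 17 genes of the CCR4-NOT and PAN deadenylase complexes and their partners, which act downstream of YTHDF2, 9 were members in DMSO (52.9%) and 7 in Dox (41.2%), beside 16.5% and 12.7% of all coding genes, and all 7 were shared. Of all Dox genes with a stop codon peak, 91.4% were shared. In each list 15 of the 17 had any placed peak, and over all genes with one 61.8% and 58.8% were members. Their median peak length was 125 nt in DMSO and 75 nt in Dox, beside 150 nt for all members. GGAC was held by 2 of 11 DMSO peaks and 1 of 7 Dox peaks, beside 61.9% and 62.7% of all members, a comparison not made at equal length. The scaffold Cnot1 had 50 nt with a score of 11.1 in DMSO and 25 nt with 10.2 in Dox, and Cnot2 and Cnot11 had 175 and 100 nt in DMSO and 25 nt each in Dox. Cnot9 had the same block of 200 nt in both, with scores of 12.02 and 14.5, and Cnot10 had 125 and 75 nt. Btg1 had 325 and 350 nt, and Btg2 had 200 and 125 nt. Cnot3 and Cnot8 were DMSO members only.

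The chromatin and signalling genes named here were chosen after their values were seen, from the best scores. Polycomb genes were members in 13 of 30 cases in DMSO (43.3%) and 11 in Dox (36.7%), and all 11 were shared. Over all coding genes the shares were 16.5% and 12.7%. Of all genes with a stop codon peak, 69.9% of the DMSO genes and 91.4% of the Dox genes were shared. The Polycomb members were 13 of the 19 and 11 of the 17 with any placed peak, beside 61.8% and 58.8% over all such genes. Jarid2, a subunit of PRC2, had 150 nt with a score of 13.4 in DMSO and 75 nt with 16.7 in Dox, Pcgf2 had 450 and 300 nt, and Rybp had 550 nt in both. Among 37 histone lysine methyltransferases and demethylases 20 (54.1%) and 15 (40.5%) were members, with all 15 shared. They were 20 of the 34 and 15 of the 32 with any placed peak. Kdm4a had 250 nt with scores of 17.9 and 14.8, Kdm5b had 300 nt with 16.3 and 11.6 and 4 GGAC sites, and Kdm5a had 275 nt with 15.98 and 200 nt with 12.5.

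In the LIF, FGF and MYC pathways 14 of 36 genes were members in each list (38.9%) and 11 were shared. They were 14 of the 24 and 14 of the 22 with any placed peak, beside 61.8% and 58.8% over all such genes. Lifr, the LIF receptor subunit, had 1050 nt with a score of 17.9 in DMSO and 850 nt with 11.9 in Dox. Its partner Il6st, which encodes gp130, was a Dox member only (950 nt, 13.4), while a DMSO peak of 1375 nt also covered its stop codon with the middle at position 257. The feedback inhibitor Socs3 had 1100 and 1075 nt with 9 GGAC sites in both, and Myc had 550 nt with 4 GGAC sites in DMSO and 225 nt with 1 in Dox. Cyclins were members in 10 of 20 cases in DMSO and 9 in Dox, all 9 shared, and 12 and 10 of them had any placed peak. Of all Dox genes with a stop codon peak, 91.4% were shared. Ccnd1 had 275 nt with a score of 11.7 in DMSO and 200 nt with 16.6 in Dox. Replication-dependent histone genes, whose mRNAs end in a stem-loop, were members in 13 of 67 cases in DMSO (19.4%) and 11 in Dox (16.4%), close to the 16.5% and 12.7% of all coding genes, and 1 peak in each list held GGAC. Near-identical loci were found for 10 of the 13 DMSO peaks and 8 of the 11 Dox peaks, so these calls are uncertain between copies.

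The largest changes in length at paired sites ran both ways. The excess of the DMSO peak was greatest at Spry4, an inhibitor of FGF signalling (425 against 75 nt), at Junb, an AP-1 subunit (400 against 75 nt), and at Ppil4 (500 against 175 nt). That of the Dox peak was greatest at Zscan4d (1225 against 25 nt), at the heat shock gene Hspa1b (400 against 125 nt) and at Scaf1 (575 against 325 nt). The DMSO peaks of Zscan4d and Hspa1b had 8 and 1 near-identical loci, so reads of another copy may be counted there. At Junb the DMSO peak ran from position −262 to 137 and the Dox peak from −12 to 62, so that both covered the stop codon.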

How the data were processed

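MeRIP-seq libraries of IP and input RNA (2 each per treatment) were the source. Submitters' processing notes name fastp 0.19.4 for read filtering and HISAT2 2.2.1 for alignment (mm10), and the methods name exomePeak2 for peak calling. Its settings and how replicates were combined are not given in the sources used here. The deposited peak lists give 1 list per treatment with exon blocks and, as read from the values, the authors' −log10 p-value of each peak.

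Peaks were placed on GENCODE M21 transcripts by their middle exon-block base. A middle base in several genes was given to the gene with most overlap. Motifs were read on the peak's strand in the GRCm38 genome. Another locus was counted as near-identical when at least 90% of a peak matched with at least 98% identity (blastn 2.17.0). Of the members, 407 DMSO and 317 Dox peaks had such a locus. Shares have Wilson and differences Newcombe 95% intervals (Python 3.11.15, scipy 1.17.1, numpy 2.4.6). Figures used matplotlib 3.10.9. Placement and overlap were tested on simulated peaks. Members and gene lists were chosen with earlier results of these data known. Genes named were the 5 best-scoring members of each list and the 5 best without overlap, the 3 pairs with the largest length difference each way, all pluripotency, 2C, m6A and deadenylase genes with a member, and up to 30 best-scoring genes of the other lists. Ribosomal protein and histone genes took those 30 places, so the chromatin, signalling and cyclin genes were named after their values were seen. The alternatives covered the window, transcript, score, list size, overlap, motif and near-identical loci.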

Additional observations from a re-analysis of the deposited data

How the results depend on the processing

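No paired analysis was possible because the 2 replicates of a treatment were merged into 1 list, and leaving out a replicate could not be done for the same reason. The values below are in the order DMSO, Dox where 2 are given. The share of placed peaks at the stop codon was 14.1% and 15.7% with a window of 100 nt, 35.2% and 38.1% with 400 nt, 25.04% and 27.2% on any protein-coding transcript, 26.3% for the best-scoring 50% of the Dox list and 23.6% for a DMSO list of the size of the Dox list. The shared part of the members was 56.1% and 92.8% when 50% of the peak had to overlap, 53.6% and 70.5% for 50% of both peaks, 64.1% and 88.1% when the other peak had to lie at the same stop codon, 84.6% and 97.7% for the best-scoring 50% of members, 80.2% and 82.0% at equal list size, and 64.1% and 93.3% with 400 nt. Over all lengths, the Dox difference from upstream coding peaks rose to 2.08 points when 50% of the peak had to overlap and to 11.7 points for 50% of both peaks. It was 1.43 points (0.204 to 2.53) with 100 nt and 0.830 points (−0.177 to 1.71) for the best-scoring 50%, and it turned to −0.612 points at equal list size and −0.216 points with 400 nt. The DMSO difference kept its direction with an interval above 0 in all 6 alternatives run, between 9.61 and 13.98 points. The GGAC share was 89.8% and 89.8% for DRACH, 30.1% and 31.1% for GGACT, 69.9% and 71.3% for the best-scoring 50%, and 59.6% and 59.9% with 400 nt. Genes with a stop codon peak fell to 1978 and 1533 for the best-scoring 50% of each list, and the genes of both lists to 1082 there and to 1527 with 100 nt. The remaining 13 counts stayed within 1.5 times, 15 shares stayed within the interval of the reported value, and 21 differences kept their direction with an interval above 0. Among these were 2 alternatives chosen after seeing the data, overlap without near-identical loci and GGAC without ribosomal protein genes. The cause of these moves was not tested. Depth per library is unknown, so a site missing from a list was not detected at the depth used, and is not shown to lack m6A.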
